A study of Homo sapiens with 16 samples.

Results

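The 41 genes described here encode the folding machinery of the endoplasmic reticulum (ER), the factors of ER-associated degradation (ERAD) and the sensors and regulators of the unfolded protein response (UPR). They were taken by symbol, and a probe was assigned to a member through the RefSeq accession that the array design gives it. All 41 were on the array, out of 20503 genes with a matched probe, and all 41 passed the signal filter that left 16398 genes for testing. They fall into 11 chaperones, 7 oxidoreductases, 12 ERAD factors, 6 sensors and regulators and 5 genes of the translocon and its partners.

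Expression was measured in LP-1, a human multiple myeloma cell line, that had been transduced with lentivirus. One pool carried a pIRES2-cIAP2-eGFP vector and overexpressed cIAP2, an inhibitor of apoptosis protein (LP-1-cIAP2-eGFP), and the control pool carried the pIRES2-eGFP vector (LP-1-eGFP). These are called the cIAP2 line and the control line below. Each pool was left untreated or was given 10 nM bortezomib, a proteasome inhibitor, for 6 h or 24 h. Each of these 8 conditions was measured on 2 one-colour Agilent arrays from 2 biological replicates, 16 arrays in all. Each line is 1 transduced pool, so a difference between the lines cannot be told apart from a difference between those pools. RNA of whole cultures was measured, so fewer cells of a kind and less RNA per cell cannot be told apart either.

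The labelled cell type was checked against its markers. Of 10 plasma cell markers, 8 were well above background on all 16 arrays, PRDM1 was on 15 and SLAMF7 on 13. The B cell markers MS4A1 and PAX5 were above background on no array, CD22 was on 1, and CD79A was on all 16. Among the stromal markers COL1A2, COL3A1 and PDGFRB and the myeloid markers CSF1R and FCGR3A, none was above background on any array. The 4 T cell markers were above background on 10 to 15 arrays at low signal, with mean log2 signals from 5.12 to 6.61, and CD14, ITGAM, COL1A1 and DCN on 6 to 13 arrays.

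The BIRC3 gene, which encodes cIAP2, was read by 1 probe. BIRC3 in the control line had log2 signals of 13.57 and 13.67 untreated and 13.85 and 13.83 with bortezomib at 6 h, and 13.54 and 13.55 untreated and 14.04 and 13.83 with bortezomib at 24 h. BIRC3 in the cIAP2 line had log2 signals of 11.92 and 12.13 untreated and 12.51 and 12.79 with bortezomib at 6 h, and 11.92 and 12.06 untreated and 13.58 and 13.67 with bortezomib at 24 h. Within the same treatment and time, both arrays of the cIAP2 line lay below both arrays of the control line. According to the methods the probe lies in the 3′ UTR and reads only the cell's own transcript, so it does not check the transduction.

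One array stood apart in brightness. Replicate 1 of the cIAP2 line with bortezomib at 24 h was dim, with 35.5% of its gene spots above background against 49% to 71.1% on the other 15 arrays. The difference between its 2 replicates had an SD of 0.589 over the 41 members on the log2 scale. The untreated control line at 24 h came next with 0.405, and the remaining conditions had 0.126 to 0.204. Between those control arrays members moved both ways, such as DNAJB9, with 13.06 on replicate 1 and 12.20 on replicate 2, and HSPA5, with 10.28 and 10.46. The arrays lay on 2 slides of 8. Slide 1 held 6 cIAP2 and 2 control arrays, and slide 2 the reverse, so values within a slide are given beside the comparisons.

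Proteins that enter the secretory pathway are threaded into the ER through the translocon, are folded by chaperones and oxidoreductases, and are handed to ERAD for ubiquitination and destruction by the proteasome when folding fails. When unfolded proteins build up, the membrane sensors IRE1 (ERN1), PERK (EIF2AK3) and ATF6 start the UPR. IRE1 splices the XBP1 transcript, ATF6 is cleaved to a transcription factor, and PERK phosphorylates the translation factor eIF2, which raises ATF4 and DDIT3. Plasma cells and myeloma cells secrete immunoglobulin and depend on this machinery, and blocking the proteasome blocks the last step of ERAD.

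ATF6 and XBP1 act through short promoter elements, and the matches to them in the member promoters are shown here. Promoter windows from RefSeq on GRCh38.p14, from 250 bases before to 50 bases after each annotated start, were matched by symbol for 38 of the 41 members (46 windows). They were searched on both strands for the ER stress response element (ERSE, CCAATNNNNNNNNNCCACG), for its shorter variant ERSE-II (ATTGG and CCACG with 1 base between), for the core of the UPR element (UPRE, TGACGTGG), for the core of an amino acid response element (TTGCATCA) and for a heat shock element (GAA, TTC and GAA in a row, each 2 bases from the next). ERSE was present in 9 of the 38 members (23.7%) and in 0.0916% of all 27305 genes with windows. ERSE-II was present in HERPUD1, HYOU1 and SDF2L1 (7.89%) and in 0.0696% of all genes. The sites read as follows, 5′ to 3′ in the direction of the motif, with the fixed letters of the motif in capitals and 3 flanking bases at each end.
HSPA5, ERSE, chr9:125241388-125241412, minus strand: tcaCCAATcggcggcctCCACGacg
HSP90B1, ERSE, chr12:103930213-103930237, plus strand: tgaCCAATcggaaggagCCACGctt
HSP90B1, ERSE, chr12:103930318-103930342, minus strand: ccaCCAATcgcgccgcaCCACGcac
CALR, ERSE, chr19:12938381-12938405, minus strand: cgaCCAATgatggtcgaCCACGcgt
CANX, ERSE, chr5:179698775-179698799, plus strand: cggCCAATcttcacactCCACGaag
CRELD2, ERSE, chr22:49918551-49918575, minus strand: ggcCCAATccgagttcgCCACGaga
PDIA6, ERSE, chr2:10812850-10812874, minus strand: ggaCCAATgagccgcagCCACGgct
ERO1B, ERSE, chr1:236282180-236282204, plus strand: cggCCAATgaggcgggaCCACGcgg
SERP1, ERSE, chr3:150546707-150546731, plus strand: acaCCAATtcgctgtctCCACGcat
XBP1, ERSE, chr22:28800600-28800624, minus strand: tggCCAATcgcggagggCCACGacc
HERPUD1, ERSE-II, chr16:56932022-56932038, plus strand: ccgATTGGgCCACGttg
SDF2L1, ERSE-II, chr22:21642111-21642127, minus strand: ttgATTGGtCCACGctt
HYOU1, ERSE-II, chr11:119057377-119057393, plus strand: gggATTGGaCCACGtca
HYOU1, ERSE-II, chr11:119057271-119057287, plus strand: ctcATTGGaCCACGtcc

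HSP90B1 held 2 ERSE matches and HYOU1 2 ERSE-II matches. The UPRE core was found in DNAJC10 and HYOU1 (5.26% of members against 0.927% of all genes), and the HYOU1 match overlaps 1 of its ERSE-II sites on the other strand. The amino acid response core was found in HERPUD1 alone (2.63% against 1.08%). No member window held the heat shock element, which was present in 0.608% of all genes and in 6 of 18 cytosolic heat shock genes (33.3%). A match is a description of the sequence, and no binding was measured.

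Bortezomib raised part of the ER folding and ERAD machinery within 6 h, and within a line no member passed as lower at that time. At 6 h, 11 of 41 members passed the test in the control line, all higher, where 2.87% of all genes tested passed, 1.91% higher and 0.957% lower. In the cIAP2 line 10 members passed, again all higher, beside 1.48% of all genes, 1.11% higher and 0.366% lower. Of these, 8 members rose in both lines, namely HSPA5, DNAJB9, SDF2L1, HYOU1, CRELD2, PDIA4, HERPUD1 and SYVN1. The median log2 fold change over the 41 members was 0.50 in the control line and 0.54 in the cIAP2 line, beside -0.05 and -0.03 over all genes. Here and below a member passes when its adjusted p from limma, corrected over all probes tested with the Benjamini-Hochberg method, is under 0.05, and 1 unit on the log2 scale is a 2-fold difference. Unless the mean of both lines is named, the test is that within 1 line.

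The mean response of both lines rests on 4 arrays a side and was tested in the same fit, as a comparison added after the data were seen. At 6 h, 22 members were higher and 1 lower in it, beside 8.38% of all genes, 4.45% higher and 3.93% lower. At 24 h 22 were higher and 5 lower, beside 44.2% of all genes, 19.2% higher and 25% lower. CALR, DNAJB11, DNAJC3, MANF, PDIA3, DERL2, DERL3, ERLEC1 and EIF2AK3 passed as higher at 6 h in this mean and in neither line alone. The 1 lower at 6 h was XBP1, with a mean log2 value of -0.45 (adjusted p = 0.0166). SDF2L1 at 24 h, higher, and SSR1 at 24 h, lower, likewise passed in the mean alone.

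At 24 h the response had both directions. In the control line 14 members were higher and 4 lower, beside 28.4% of all genes, 13.3% higher and 15.1% lower. In the cIAP2 line 17 were higher and 3 lower, beside 36.4% of all genes, 14.4% higher and 22% lower. Both lines shared 9 members that rose, HSPA5, DNAJB9, DNAJB11, CRELD2, ERO1B, SYVN1, OS9, ERLEC1 and WFS1, and 3 that fell, PDIA6, EDEM3 and XBP1. Member medians were 0.23 and 0.39, beside -0.03 and -0.16 over all genes. Passing changes of more than 2-fold were seen in 7 members at 6 h and 8 at 24 h in the control line, beside 1.62% and 15.1% of all genes, and in 9 at each time in the cIAP2 line, beside 0.946% and 21.6%.

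These counts rest on 2 arrays a condition and moved with single arrays. The 6 h count in the control line was 1 without either untreated 6 h array of that line and 19 without either array of the cIAP2 line with bortezomib at 24 h, and that in the cIAP2 line ranged from 3 to 20. With the slide as a block the 4 counts were 6 and 4 at 6 h and 14 and 16 at 24 h. Within a slide the member medians were 0.53 and 0.59 at 6 h and 0.28 and 0.36 at 24 h, in the control line on slide 2 and in the cIAP2 line on slide 1. Scaling to the 75th percentile moved the all-gene median in the cIAP2 line at 24 h from -0.16 to 0.03 and the member median from 0.39 to 0.29. It also moved the split of higher and lower calls at 24 h to 7 and 4 in the control line and to 12 and 4 in the cIAP2 line.

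**Figure D1:**
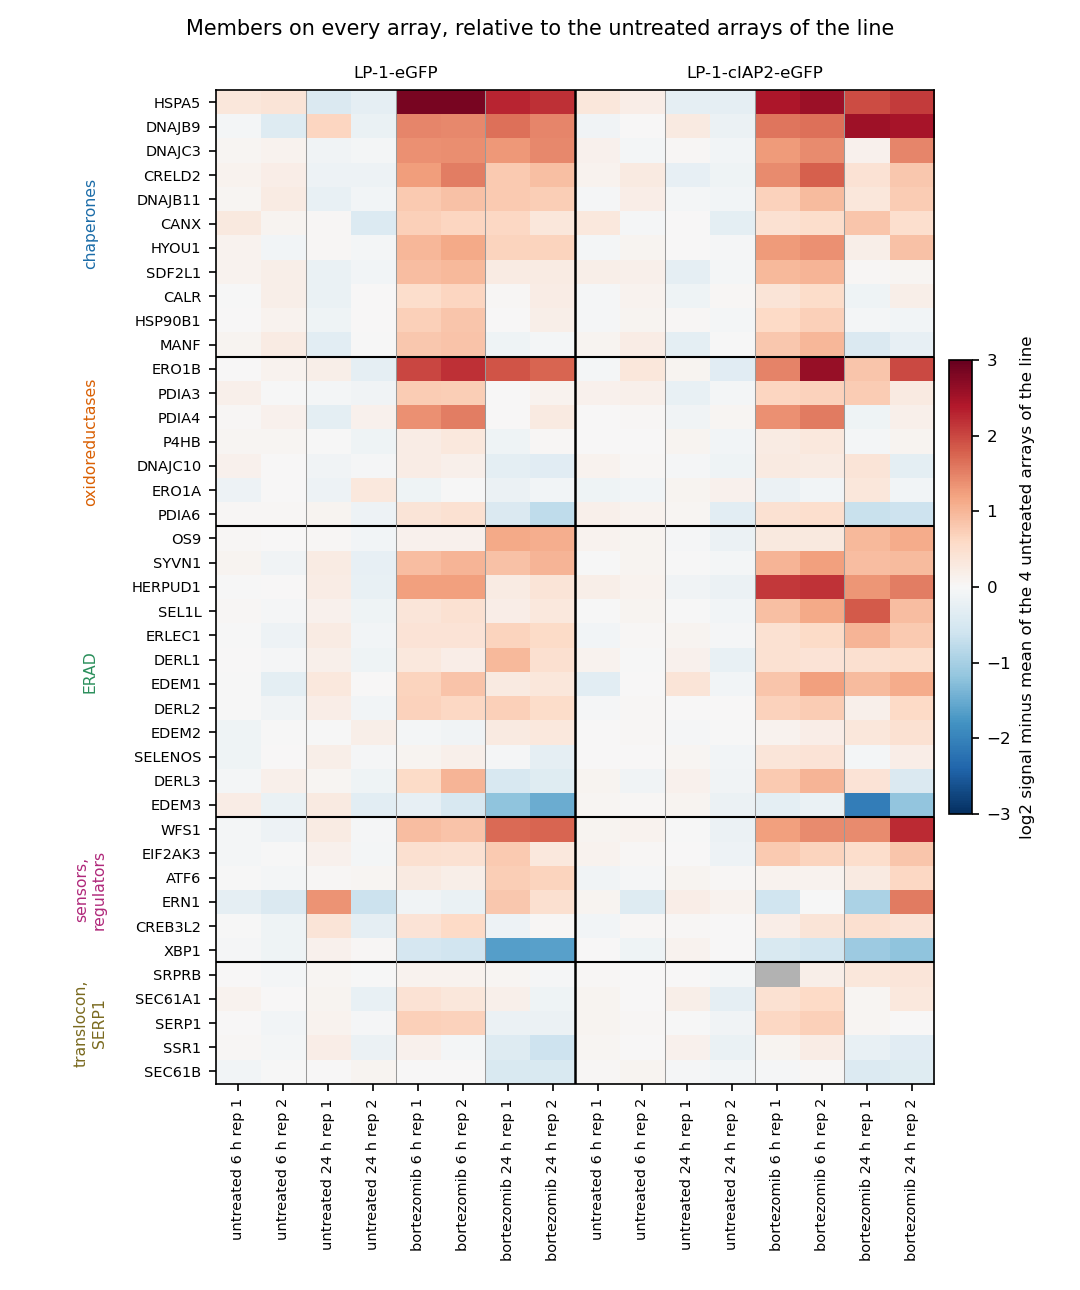
Colour gives the log2 signal of each of the 41 members (rows, by class) on each of the 16 arrays (columns), minus the mean of the 4 untreated arrays of the same line. HSPA5 and DNAJB9 are red on all 8 bortezomib arrays, XBP1 and EDEM3 are blue at 24 h, and the grey cell is the SRPRB spot left out on 1 array.

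The 12 members with an ERSE or ERSE-II match and the 26 with a window but neither can be set side by side. At 6 h, 8 of the 12 were higher in the control line and 5 in the cIAP2 line, with median log2 fold changes of 0.77 and 0.73. Among the other 26, 3 and 5 were higher, with medians of 0.38 and 0.43, beside 1.91% and 1.11% of all genes higher. At 24 h, 4 and 5 of the 12 were higher and 2 lower in each line, with medians of 0.35 and 0.38, and of the 26, 9 and 11 were higher and 2 and 1 lower, with medians of 0.22 and 0.39. Of all genes, 13.3% and 14.4% were higher and 15.1% and 22% lower at that time. The 12 ranged from XBP1, which fell at 24 h, to HSPA5, so a match did not go with 1 direction.

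The chaperones held the member with the strongest response at 6 h. HSPA5 (BiP) is the Hsp70 chaperone of the ER lumen, which also holds the UPR sensors inactive. HSPA5 in the control line had log2 signals of 11.06 and 11.11 untreated and 13.57 and 13.58 with bortezomib at 6 h, and 10.28 and 10.46 untreated and 13.01 and 12.91 with bortezomib at 24 h. HSPA5 in the cIAP2 line had log2 signals of 11.09 and 10.95 untreated and 13.18 and 13.32 with bortezomib at 6 h, and 10.50 and 10.48 untreated and 12.71 and 12.85 with bortezomib at 24 h. All 8 bortezomib arrays lay more than 1 log2 unit above all 8 untreated arrays. The log2 fold change was 2.49 ± 0.13 (SE, adjusted p = 3.84e-05) and 2.23 ± 0.13 (SE, adjusted p = 8.37e-05) at 6 h, and 2.59 ± 0.13 (SE, adjusted p = 7.73e-06) and 2.30 ± 0.13 (SE, adjusted p = 6.04e-06) at 24 h, first in the control line and then in the cIAP2 line. Untreated HSPA5 was also lower at 24 h than at 6 h, by a log2 difference of -0.62, which did not pass the correction (adjusted p = 0.142, unadjusted p = 6.17e-05).

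DNAJB9 (ERdj4) is a J-domain partner of BiP. DNAJB9 in the control line had log2 signals of 12.35 and 12.01 untreated and 13.87 and 13.86 with bortezomib at 6 h, and 13.06 and 12.20 untreated and 14.06 and 13.87 with bortezomib at 24 h. DNAJB9 in the cIAP2 line had log2 signals of 12.30 and 12.42 untreated and 14.02 and 14.05 with bortezomib at 6 h, and 12.69 and 12.23 untreated and 14.94 and 14.89 with bortezomib at 24 h. Treated and untreated arrays did not overlap within a line and time. DNAJB9 rose by 1.68 ± 0.26 (SE, adjusted p = 0.0147) and 1.68 ± 0.26 (SE, adjusted p = 0.0193) at 6 h in the control line and the cIAP2 line, and by 1.33 ± 0.26 (SE, adjusted p = 0.00545) and 2.46 ± 0.26 (SE, adjusted p = 0.000143) at 24 h. The 24 h response was larger by 1.12 log2 units in the cIAP2 line, a difference that did not pass the test (adjusted p = 0.507) and was 0.69 without replicate 1 of the untreated control line at that time.

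HSP90B1 (GRP94, the Hsp90 of the ER), CALR (calreticulin, a lectin chaperone), SDF2L1 (a partner of BiP) and MANF (a small BiP-binding protein) had smaller changes. CALR and MANF passed in neither line, and passed at 6 h in the mean of both, CALR with 0.46 (adjusted p = 0.0439) and MANF with 0.71 (adjusted p = 0.00719). HSP90B1 in the control line had log2 signals of 16.76 and 16.85 untreated and 17.46 and 17.58 with bortezomib at 6 h, and 16.61 and 16.74 untreated and 16.75 and 16.92 with bortezomib at 24 h. HSP90B1 in the cIAP2 line had log2 signals of 17.17 and 17.29 untreated and 17.80 and 17.93 with bortezomib at 6 h, and 17.25 and 17.15 untreated and 17.15 and 17.14 with bortezomib at 24 h. The treated arrays stood above the untreated ones at 6 h in both lines, and the groups overlapped at 24 h in the cIAP2 line. The change at 6 h was 0.71 ± 0.13 (SE, adjusted p = 0.0278) in the control line and 0.63 ± 0.13 (SE, adjusted p = 0.0615) in the cIAP2 line. A second HSP90B1 probe passed in all 4 comparisons, with 1.27 (adjusted p = 0.00329) and 1.21 (adjusted p = 0.00497) at 6 h and 0.77 (adjusted p = 0.00346) and 0.44 (adjusted p = 0.0417) at 24 h, where the reported probe gave 0.16 and -0.05. CALR in the control line had log2 signals of 17.39 and 17.56 untreated and 17.92 and 18.02 with bortezomib at 6 h, and 17.20 and 17.40 untreated and 17.41 and 17.60 with bortezomib at 24 h. CALR in the cIAP2 line had log2 signals of 17.67 and 17.82 untreated and 18.10 and 18.25 with bortezomib at 6 h, and 17.59 and 17.74 untreated and 17.59 and 17.88 with bortezomib at 24 h. CALR did not pass in any of the 4 comparisons within a line, with log2 fold changes from 0.07 to 0.50.

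SDF2L1 in the control line had log2 signals of 16.79 and 16.86 untreated and 17.62 and 17.65 with bortezomib at 6 h, and 16.49 and 16.61 untreated and 16.92 and 16.94 with bortezomib at 24 h. SDF2L1 in the cIAP2 line had log2 signals of 17.13 and 17.12 untreated and 17.94 and 17.97 with bortezomib at 6 h, and 16.69 and 16.90 untreated and 16.99 and 17.01 with bortezomib at 24 h. Bortezomib arrays were highest at 6 h in both lines, with a log2 fold change of 0.81 ± 0.12 (SE, adjusted p = 0.0123) in the control line and 0.83 ± 0.12 (SE, adjusted p = 0.0149) in the cIAP2 line. MANF in the control line had log2 signals of 16.09 and 16.24 untreated and 16.81 and 16.87 with bortezomib at 6 h, and 15.70 and 15.998 untreated and 15.88 and 15.94 with bortezomib at 24 h. MANF in the cIAP2 line had log2 signals of 16.43 and 16.57 untreated and 17.16 and 17.34 with bortezomib at 6 h, and 16.04 and 16.32 untreated and 15.91 and 16.09 with bortezomib at 24 h. MANF stood highest on the 6 h bortezomib arrays, with changes of 0.67 and 0.74 that did not pass (adjusted p = 0.0806 and 0.0735), and was near its untreated level at 24 h, with 0.06 and -0.18.

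The remaining chaperones were CRELD2, HYOU1, DNAJC3, DNAJB11 and CANX. CRELD2, a small ER stress-inducible protein, rose in all 4 comparisons, by 1.26 and 1.43 at 6 h and 0.99 and 0.80 at 24 h. HYOU1 (GRP170), a nucleotide exchange factor of BiP, rose by 1.05 and 1.31 at 6 h and in the control line by 0.68 at 24 h. In the cIAP2 line the HYOU1 value at 24 h was 0.55 (adjusted p = 0.0741), which did not pass. There the dim array read 10.13, its replicate 10.83 and the untreated arrays 9.95 and 9.92. DNAJB11 (ERdj3) rose at 24 h in both lines, by 0.91 and 0.63. DNAJC3, another J-domain protein, rose at 24 h in the control line by 1.45. In the cIAP2 line its value at 24 h was 0.82 ± 0.33 (SE, adjusted p = 0.093), which did not pass. At 6 h its treated arrays stood above the untreated ones in both lines, with 1.30 ± 0.33 (SE, adjusted p = 0.0932) and 1.32 ± 0.33 (SE, adjusted p = 0.115), short of the threshold. The dim array read DNAJC3 at 10.89 against 12.23 on its replicate, and the untreated 24 h arrays of the cIAP2 line read 10.80 and 10.68. CANX (calnexin), the membrane-bound lectin chaperone, rose at 24 h in the cIAP2 line by 0.82, and its second probe gave -0.46 (adjusted p = 0.156) there. Without the dim array the CANX change was 0.66 (adjusted p = 0.0742). By count, 6 of 11 chaperones rose in the control line and 5 in the cIAP2 line at each time, and none fell. The shares of all genes that were higher were 1.91% and 1.11% at 6 h and 13.3% and 14.4% at 24 h.

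The oxidoreductases, which form and rearrange disulfide bonds, did not move as a block. PDIA6 (P5) is a protein disulfide isomerase. PDIA6 in the control line had log2 signals of 14.16 and 14.15 untreated and 14.51 and 14.57 with bortezomib at 6 h, and 14.19 and 13.98 untreated and 13.68 and 13.35 with bortezomib at 24 h. PDIA6 in the cIAP2 line had log2 signals of 13.85 and 13.80 untreated and 14.16 and 14.20 with bortezomib at 6 h, and 13.77 and 13.38 untreated and 13.02 and 13.09 with bortezomib at 24 h. In both lines the 6 h bortezomib arrays were the highest and the 24 h bortezomib arrays the lowest. It fell at 24 h in the control line, with -0.57 ± 0.17 (SE, adjusted p = 0.0389), and in the cIAP2 line, with -0.52 ± 0.17 (SE, adjusted p = 0.0441). In the cIAP2 line the PDIA6 value was -0.49 without the dim array (adjusted p = 0.104) and -0.32 without untreated 24 h replicate 1 (adjusted p = 0.285).

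ERO1B and ERO1A are the oxidases that recharge the protein disulfide isomerases. ERO1B was dim, with 10 of 16 arrays above background. ERO1B in the control line had log2 signals of 5.05 and 5.13 untreated and 7.04 and 7.24 with bortezomib at 6 h, and 5.21 and 4.76 untreated and 6.93 and 6.79 with bortezomib at 24 h. ERO1B in the cIAP2 line had log2 signals of 4.25 and 4.66 untreated and 5.81 and 6.93 with bortezomib at 6 h, and 4.40 and 3.97 untreated and 5.14 and 6.31 with bortezomib at 24 h. Every bortezomib array was above every untreated array of the same line and time. It rose at 6 h in the control line by 2.05 ± 0.42 (SE, adjusted p = 0.0432), with all 4 arrays above background. At 24 h it passed as higher in both lines, but the sizes are loose because some arrays were at background. In the control line the measured value was 1.87 ± 0.42 (SE, adjusted p = 0.011), with 1 of 2 untreated arrays above background. In the cIAP2 line it was 1.54 ± 0.42 (SE, adjusted p = 0.0225), with 1 of 2 arrays above background in each arm, and 0.94 without bortezomib replicate 2 (adjusted p = 0.0860), which leaves the dim array. In the untreated cIAP2 line at 6 h it was not well above background, so its 6 h change there is at least 2.31-fold, the treated mean against the lowest signal above background on each untreated array, with only 1 of 2 treated arrays above background (adjusted p = 0.0754). ERO1A in the control line had log2 signals of 10.91 and 11.07 untreated and 10.94 and 11.06 with bortezomib at 6 h, and 10.91 and 11.38 untreated and 10.90 and 10.97 with bortezomib at 24 h. ERO1A in the cIAP2 line had log2 signals of 11.42 and 11.46 untreated and 11.38 and 11.45 with bortezomib at 6 h, and 11.63 and 11.67 untreated and 11.88 and 11.45 with bortezomib at 24 h. Its 4 bortezomib changes lay between -0.20 and 0.01 and none passed.

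PDIA4 (ERp72) is another disulfide isomerase, which rose in both lines at 6 h. PDIA4 in the control line had log2 signals of 12.06 and 12.16 untreated and 13.40 and 13.55 with bortezomib at 6 h, and 11.72 and 12.15 untreated and 12.04 and 12.29 with bortezomib at 24 h. PDIA4 in the cIAP2 line had log2 signals of 12.37 and 12.41 untreated and 13.73 and 13.92 with bortezomib at 6 h, and 12.26 and 12.42 untreated and 12.25 and 12.52 with bortezomib at 24 h. The 4 arrays at 6 h with bortezomib stood apart from the other 12, which lay between 11.72 and 12.52. Its log2 fold change was 1.37 ± 0.18 (SE, adjusted p = 0.00733) and 1.44 ± 0.18 (SE, adjusted p = 0.00717) at 6 h, against 0.23 and 0.04 at 24 h. PDIA3 (ERp57), which works with calnexin and calreticulin, is read here by 2 probes. PDIA3 in the control line had log2 signals of 13.81 and 13.65 untreated and 14.42 and 14.40 with bortezomib at 6 h, and 13.60 and 13.54 untreated and 13.66 and 13.76 with bortezomib at 24 h. PDIA3 in the cIAP2 line had log2 signals of 14.09 and 14.11 untreated and 14.60 and 14.64 with bortezomib at 6 h, and 13.73 and 13.90 untreated and 14.71 and 14.22 with bortezomib at 24 h. It rose at 24 h in the cIAP2 line by 0.65 ± 0.17 (SE, adjusted p = 0.0174), which became 0.40 without the dim array (adjusted p = 0.0513). Its second probe passed at 6 h instead, with 1.03 (adjusted p = 0.0148) and 1.11 (adjusted p = 0.0139). P4HB, the founding protein disulfide isomerase, had values from 0.02 to 0.28 and did not pass, while its second probe passed at 24 h in the cIAP2 line, with 0.42 (adjusted p = 0.0332). DNAJC10 (ERdj5), an ERAD-linked reductase, did not pass either, with -0.25 and 0.12 at 24 h, but its second probe fell in both lines at 24 h, with -0.97 (adjusted p = 0.000539) and -0.68 (adjusted p = 0.00315).

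**Figure D2:**
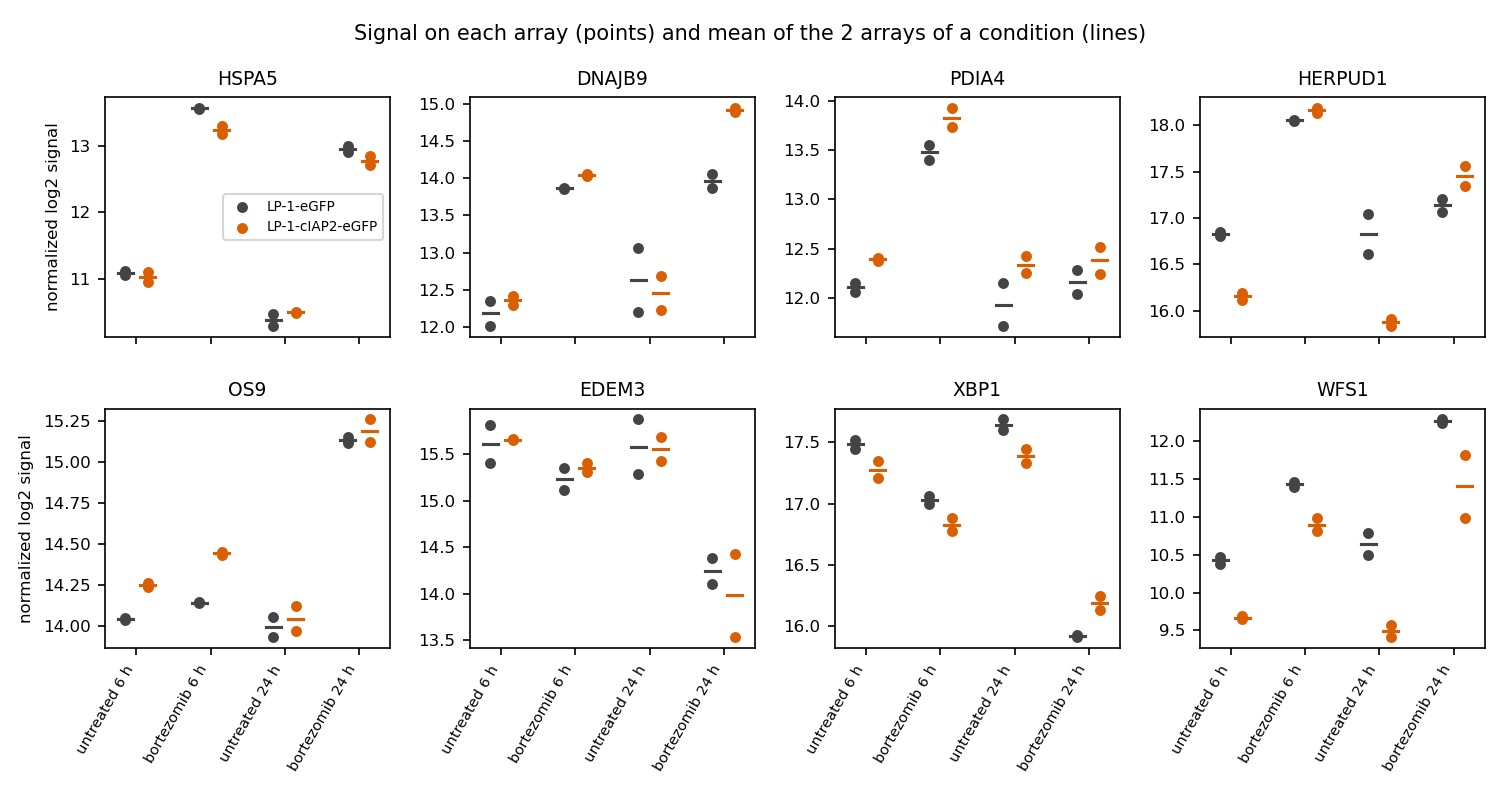
Points give the normalized log2 signal (vertical axes, each to its own range) of 8 members on each array, by condition, with the control line in grey and the cIAP2 line in orange, and lines give the mean of the 2 arrays. PDIA4 peaks at 6 h with bortezomib, OS9 rises and XBP1 and EDEM3 fall at 24 h, and untreated HERPUD1 is lower in the cIAP2 line.

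Of the 12 ERAD members EDEM3 was the 1 that fell at 24 h, while EDEM1 and EDEM2 rose in the cIAP2 line. OS9 and ERLEC1 are the lectins that hand misfolded glycoproteins to the HRD1 ligase complex. OS9 in the control line had log2 signals of 14.05 and 14.04 untreated and 14.14 and 14.15 with bortezomib at 6 h, and 14.05 and 13.93 untreated and 15.15 and 15.12 with bortezomib at 24 h. OS9 in the cIAP2 line had log2 signals of 14.26 and 14.24 untreated and 14.44 and 14.45 with bortezomib at 6 h, and 14.12 and 13.97 untreated and 15.12 and 15.26 with bortezomib at 24 h. The 4 arrays with bortezomib at 24 h lay between 15.12 and 15.26 and the other 12 at 14.45 or below. OS9 rose at 24 h by 1.14 ± 0.12 (SE, adjusted p = 0.000184) and 1.14 ± 0.12 (SE, adjusted p = 0.000135), while at 6 h the changes were 0.10 and 0.19 and did not pass. ERLEC1 rose at 24 h by 0.54 and 0.87, and its second probe gave 0.57 and -0.14, neither of which passed.

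The EDEM proteins trim mannose from glycoproteins that are to be degraded. EDEM3 in the control line had log2 signals of 15.82 and 15.41 untreated and 15.36 and 15.11 with bortezomib at 6 h, and 15.88 and 15.28 untreated and 14.39 and 14.11 with bortezomib at 24 h. EDEM3 in the cIAP2 line had log2 signals of 15.66 and 15.66 untreated and 15.31 and 15.41 with bortezomib at 6 h, and 15.69 and 15.43 untreated and 13.53 and 14.43 with bortezomib at 24 h. All 4 arrays with bortezomib at 24 h were the lowest of the 16. EDEM3 fell at 24 h, with -1.33 ± 0.30 (SE, adjusted p = 0.0113) and -1.58 ± 0.30 (SE, adjusted p = 0.00375), and the 2 other EDEM3 probes gave -1.32 and -0.82 in the control line and -1.42 and -0.16 in the cIAP2 line. EDEM1 went the other way. EDEM1 in the control line had log2 signals of 6.68 and 6.40 untreated and 7.37 and 7.55 with bortezomib at 6 h, and 7.01 and 6.70 untreated and 6.96 and 7.03 with bortezomib at 24 h. EDEM1 in the cIAP2 line had log2 signals of 6.71 and 7.05 untreated and 7.87 and 8.25 with bortezomib at 6 h, and 7.41 and 6.94 untreated and 7.97 and 8.14 with bortezomib at 24 h. It rose in the cIAP2 line by 1.18 ± 0.22 (SE, adjusted p = 0.0417) at 6 h and 0.88 ± 0.22 (SE, adjusted p = 0.0155) at 24 h, and in the control line the values 0.93 and 0.14 did not pass. The difference between these responses did not pass either, with 0.26 (adjusted p = 1) at 6 h and 0.74 (adjusted p = 0.61) at 24 h. EDEM2 rose by 0.41 at 24 h in the cIAP2 line.

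SYVN1 (HRD1) is the ubiquitin ligase of this pathway, SEL1L is its adaptor and HERPUD1 (Herp) is a membrane scaffold of the complex. SYVN1 rose in all 4 comparisons, by 0.98 and 1.09 at 6 h and 0.94 and 0.98 at 24 h. HERPUD1 in the control line had log2 signals of 16.80 and 16.85 untreated and 18.05 and 18.06 with bortezomib at 6 h, and 17.04 and 16.61 untreated and 17.07 and 17.20 with bortezomib at 24 h. HERPUD1 in the cIAP2 line had log2 signals of 16.20 and 16.11 untreated and 18.14 and 18.19 with bortezomib at 6 h, and 15.91 and 15.84 untreated and 17.34 and 17.56 with bortezomib at 24 h. The untreated arrays of the cIAP2 line lay below those of the control line, and the bortezomib arrays lay above them. HERPUD1 rose at 6 h by 1.23 ± 0.16 (SE, adjusted p = 0.0071) and 2.01 ± 0.16 (SE, adjusted p = 0.000669), and at 24 h by 1.57 ± 0.16 (SE, adjusted p = 0.000109) in the cIAP2 line against 0.31 ± 0.16 (SE, adjusted p = 0.232) in the control line.

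SEL1L in the control line had log2 signals of 11.57 and 11.50 untreated and 11.91 and 12.003 with bortezomib at 6 h, and 11.67 and 11.40 untreated and 11.72 and 11.86 with bortezomib at 24 h. SEL1L in the cIAP2 line had log2 signals of 10.68 and 10.76 untreated and 11.58 and 11.81 with bortezomib at 6 h, and 10.68 and 10.61 untreated and 12.51 and 11.62 with bortezomib at 24 h. Untreated SEL1L was likewise lower in the cIAP2 line. It rose there at 24 h by 1.42 ± 0.25 (SE, adjusted p = 0.00234), or 0.98 without the dim array (adjusted p = 0.00234), and its 2 other probes gave 0.94 and -0.84, neither of which passed. DERL1, DERL2 and DERL3 encode derlins, membrane proteins of the retrotranslocation step. DERL2 in the control line had log2 signals of 12.999 and 12.90 untreated and 13.70 and 13.63 with bortezomib at 6 h, and 13.20 and 12.91 untreated and 13.71 and 13.56 with bortezomib at 24 h. DERL2 in the cIAP2 line had log2 signals of 13.31 and 13.38 untreated and 14.04 and 14.12 with bortezomib at 6 h, and 13.36 and 13.35 untreated and 13.51 and 13.96 with bortezomib at 24 h. DERL1 and DERL2 rose at 24 h in the control line, by 0.71 and 0.58, and all treated DERL2 arrays were above the untreated arrays of their line and time. In the cIAP2 line the 24 h values were 0.54 (adjusted p = 0.0627) and 0.38 (adjusted p = 0.128), which did not pass. There the dim array read DERL2 at 13.51 against 13.96 on its replicate. Without bortezomib replicate 1 of the control line at 24 h the DERL1 value was 0.46 (adjusted p = 0.217). DERL3 was higher at 6 h by 0.75 and 0.90, short of the threshold, and its second probe gave 1.78 (adjusted p = 0.0503) and 1.92 (adjusted p = 0.0519). At 24 h in the cIAP2 line the reported probe stood at -0.02 and the second at -1.17 (adjusted p = 0.0451). SELENOS (VIMP), which recruits the p97 ATPase, passed in no comparison. In all, 2 of 12 ERAD members rose in the control line and 3 in the cIAP2 line at 6 h, beside 1.91% and 1.11% of all genes, and 5 and 7 rose at 24 h with 1 falling in each line, beside 13.3% and 14.4% of all genes higher and 15.1% and 22% lower.

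Among the 6 sensors and regulators, XBP1 fell and WFS1 rose in both lines at 24 h. XBP1 encodes the transcription factor that IRE1 activates by splicing. The probe's place relative to the spliced segment is not given in the sources used here, so its forms are not told apart. XBP1 in the control line had log2 signals of 17.52 and 17.44 untreated and 17.06 and 16.998 with bortezomib at 6 h, and 17.69 and 17.60 untreated and 15.91 and 15.93 with bortezomib at 24 h. XBP1 in the cIAP2 line had log2 signals of 17.34 and 17.21 untreated and 16.88 and 16.78 with bortezomib at 6 h, and 17.45 and 17.33 untreated and 16.25 and 16.14 with bortezomib at 24 h. In each line the arrays ordered without overlap from untreated to 6 h and then to 24 h with bortezomib. XBP1 fell at 24 h, with -1.72 ± 0.12 (SE, adjusted p = 2.69e-05) and -1.20 ± 0.12 (SE, adjusted p = 0.000121), and stood at -0.45 and -0.45 at 6 h, which did not pass within a line. It is also 1 of the 10 plasma cell markers. At 24 h 7 of these were lower and 1 higher in each line, with median log2 changes of -1.21 and -1.47. Of all genes, 15.1% and 22% were lower and 13.3% and 14.4% higher at that time. The part of the marker shift in the XBP1 change was not tested.

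WFS1 (wolframin) is an ER membrane protein that restrains ATF6 signalling. WFS1 in the control line had log2 signals of 10.47 and 10.38 untreated and 11.46 and 11.40 with bortezomib at 6 h, and 10.79 and 10.50 untreated and 12.24 and 12.29 with bortezomib at 24 h. WFS1 in the cIAP2 line had log2 signals of 9.65 and 9.69 untreated and 10.81 and 10.99 with bortezomib at 6 h, and 9.57 and 9.41 untreated and 10.99 and 11.82 with bortezomib at 24 h. Treated arrays were above untreated ones in each line at each time. WFS1 rose by 1.62 ± 0.24 (SE, adjusted p = 0.001) and 1.91 ± 0.24 (SE, adjusted p = 0.000305) at 24 h, or 2.34 without the dim array in the cIAP2 line. At 6 h WFS1 rose in the cIAP2 line by 1.23 ± 0.24 (SE, adjusted p = 0.0452). The 6 h value in the control line was 1.01 (adjusted p = 0.0702), which did not pass.

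ATF6 in the control line had log2 signals of 13.04 and 12.98 untreated and 13.31 and 13.22 with bortezomib at 6 h, and 13.07 and 13.10 untreated and 13.78 and 13.71 with bortezomib at 24 h. ATF6 in the cIAP2 line had log2 signals of 13.10 and 13.17 untreated and 13.32 and 13.32 with bortezomib at 6 h, and 13.30 and 13.25 untreated and 13.48 and 13.83 with bortezomib at 24 h. It rose at 24 h in the control line by 0.66 ± 0.14 (SE, adjusted p = 0.00788). In the cIAP2 line the value was 0.39 ± 0.14 (SE, adjusted p = 0.0655), which did not pass. There the dim array read ATF6 at 13.48 against 13.83 on its replicate, and the untreated arrays read 13.30 and 13.25. EIF2AK3 (PERK) in the control line had log2 signals of 10.76 and 10.80 untreated and 11.30 and 11.27 with bortezomib at 6 h, and 10.92 and 10.74 untreated and 11.58 and 11.12 with bortezomib at 24 h. EIF2AK3 in the cIAP2 line had log2 signals of 10.22 and 10.16 untreated and 10.91 and 10.79 with bortezomib at 6 h, and 10.14 and 9.96 untreated and 10.66 and 10.96 with bortezomib at 24 h. Treated EIF2AK3 arrays were above the untreated arrays of their line and time, and the rise passed at 24 h in the cIAP2 line, with 0.76 ± 0.18 (SE, adjusted p = 0.0113). Under another background correction (normexp) that value was -0.01, so its direction is not settled.

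ERN1 (IRE1) in the control line had log2 signals of 6.31 and 6.16 untreated and 6.48 and 6.39 with bortezomib at 6 h, and 7.92 and 5.95 untreated and 7.39 and 7.07 with bortezomib at 24 h. ERN1 in the cIAP2 line had log2 signals of 6.20 and 5.73 untreated and 5.52 and 6.10 with bortezomib at 6 h, and 6.32 and 6.23 untreated and 5.18 and 7.68 with bortezomib at 24 h. Its replicates lay far apart at 24 h, 14 arrays were above background, and changes between -0.15 and 0.29 had an SE of 0.76, none of which passed. CREB3L2, a membrane-bound transcription factor, did not pass, with 0.42 at 24 h in the cIAP2 line, where its second probe gave 1.47 (adjusted p = 0.0023).

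Of the 5 translocon genes, SERP1 rose at 6 h in the control line, where 2.87% of all genes passed, and at 24 h 1 fell in the control line and 1 rose in the cIAP2 line, beside 28.4% and 36.4% of all genes that passed at 24 h. SEC61B is a subunit of the Sec61 channel. SEC61B in the control line had log2 signals of 16.07 and 16.15 untreated and 16.16 and 16.15 with bortezomib at 6 h, and 16.16 and 16.23 untreated and 15.70 and 15.70 with bortezomib at 24 h. SEC61B in the cIAP2 line had log2 signals of 15.93 and 15.99 untreated and 15.87 and 15.95 with bortezomib at 6 h, and 15.88 and 15.82 untreated and 15.51 and 15.55 with bortezomib at 24 h. The 24 h bortezomib arrays were the lowest of each line. It fell at 24 h in the control line, with -0.50 ± 0.11 (SE, adjusted p = 0.0121), and stood at -0.32 ± 0.11 (SE, adjusted p = 0.062) in the cIAP2 line. SSR1 is a subunit of the translocon-associated protein complex. SSR1 in the control line had log2 signals of 14.92 and 14.82 untreated and 15.005 and 14.82 with bortezomib at 6 h, and 15.08 and 14.70 untreated and 14.50 and 14.25 with bortezomib at 24 h. SSR1 in the cIAP2 line had log2 signals of 15.27 and 15.22 untreated and 15.30 and 15.43 with bortezomib at 6 h, and 15.34 and 15.02 untreated and 14.98 and 14.86 with bortezomib at 24 h. SSR1 passed in neither line, with -0.51 and -0.26 at 24 h, and was lower in the mean of both, with -0.39 (adjusted p = 0.0382). Its other probes gave -0.11 (adjusted p = 0.483) and -0.71 (adjusted p = 0.0274) in that mean. Scaled to the 75th percentile the reported probe passed as lower in each line at 24 h.

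SERP1 (RAMP4) is a small Sec61-associated protein that is induced by ER stress. SERP1 in the control line had log2 signals of 13.13 and 13.04 untreated and 13.82 and 13.81 with bortezomib at 6 h, and 13.21 and 13.07 untreated and 12.94 and 12.95 with bortezomib at 24 h. SERP1 in the cIAP2 line had log2 signals of 13.41 and 13.37 untreated and 13.95 and 14.05 with bortezomib at 6 h, and 13.33 and 13.22 untreated and 13.40 and 13.35 with bortezomib at 24 h. SERP1 was highest at 6 h with bortezomib in both lines, with 0.73 ± 0.12 (SE, adjusted p = 0.0182) in the control line and 0.61 ± 0.12 (SE, adjusted p = 0.0518) in the cIAP2 line. SRPRB, a subunit of the signal recognition particle receptor, rose at 24 h in the cIAP2 line by 0.38 ± 0.12 (SE, adjusted p = 0.0444); its spot was left out on 1 array of the cIAP2 line with bortezomib at 6 h, so that mean is from 1 array. SEC61A1, the pore of the channel, passed in no comparison, with log2 fold changes from 0.07 to 0.48.

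The response at 24 h was then set against that at 6 h, as the mean of both lines. It differed for 12 members, 1 higher and 11 lower at 24 h, beside 20.6% of all genes, 8.83% higher and 11.8% lower. For 4 of them the difference was more than 2-fold, beside 9.89% of all genes. OS9 was the 1 that passed with a signed difference above 0, 1.00 ± 0.12 (SE, adjusted p = 0.000766). The 11 that passed with a difference below 0 were HSP90B1, SDF2L1, MANF, PDIA4, PDIA6, HERPUD1, DERL3, EDEM3, XBP1, SEC61B and SERP1. PDIA4 had -1.27 ± 0.18 (SE, adjusted p = 0.00178), and MANF and SERP1 had -0.77 and -0.72. XBP1, which passed as lower at 6 h too in the mean of both lines, had -1.01, and EDEM3, which did not, had -1.11. For HSPA5 the difference did not pass, with 0.08 ± 0.13 (SE, adjusted p = 0.75). Untreated cells differed between 24 h and 6 h in no member by limma after correction, where 0.0122% of all genes passed, and in 5 members at an unadjusted p under 0.05, beside 5.81% of all genes. The normexp correction gave 3 higher and 5 lower members for the difference between the times, and scaling to the 75th percentile 0 higher and 10 lower.

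**Figure D3:**
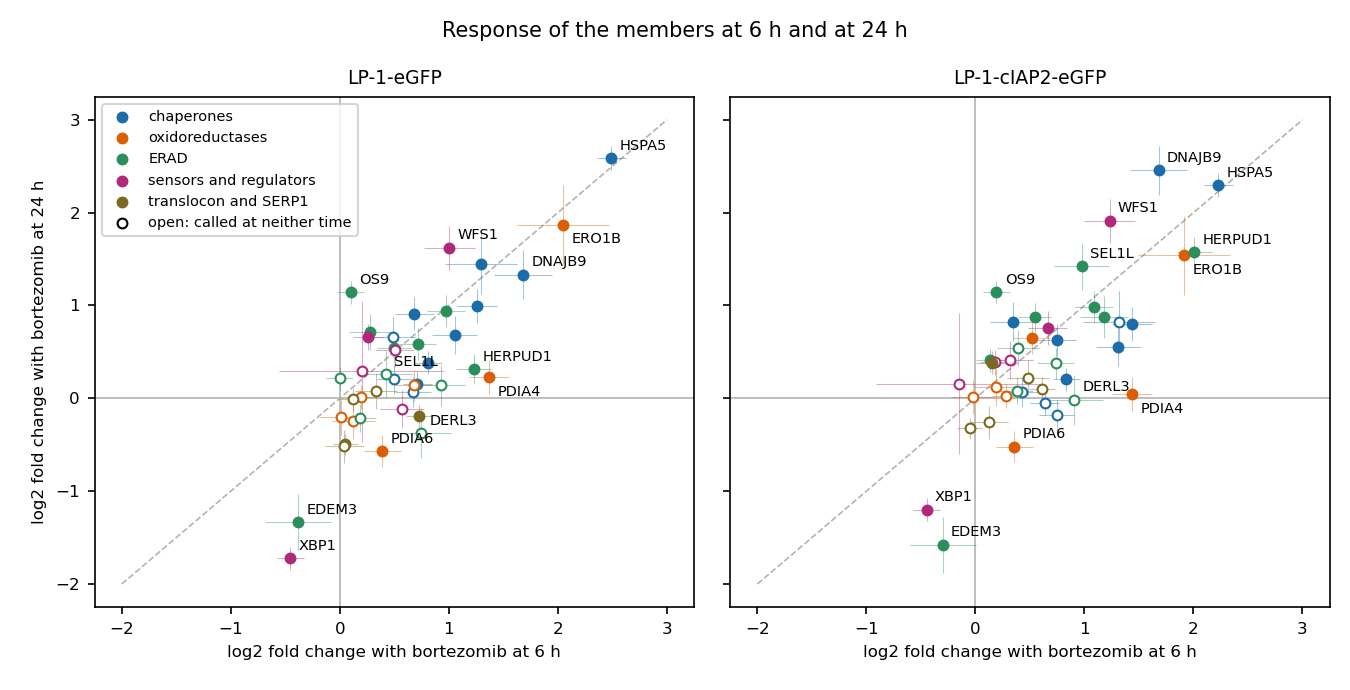
Each point is 1 of the 41 members, with its log2 fold change with bortezomib at 6 h (horizontal) and 24 h (vertical) in the control line (left) and the cIAP2 line (right), bars giving the standard error and open points members called at neither time. Points under the dashed line of equal response include PDIA4 and PDIA6, and OS9 and WFS1 lie above it.

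The lines were compared over all 4 treatment and time conditions. The cIAP2 line was higher than the control line in 11 members and lower in 7, beside 21.8% of all genes, 9.04% higher and 12.7% lower, and in none by more than 2-fold, beside 5.44%. The genes that were higher were the chaperones HSP90B1, CALR, SDF2L1 and MANF, the oxidoreductases PDIA3, PDIA4 and ERO1A, the ERAD members EDEM1 and DERL2, and SSR1 and SERP1. Those that were lower were PDIA6, ERO1B, HERPUD1, SEL1L, EIF2AK3, WFS1 and SEC61B. In terms of size, EDEM1 with 0.58 ± 0.11 (SE, adjusted p = 0.0059) and ERO1A with 0.53 ± 0.09 (SE, adjusted p = 0.00398) had the top differences upward. In untreated cells alone EDEM1 differed by 0.33 (adjusted p = 0.309) and ERO1A by 0.48 (adjusted p = 0.0608), neither of which passed. WFS1 with -0.83 ± 0.12 (SE, adjusted p = 0.00106) was among the differences downward. ERO1B is given no size here, since in the cIAP2 line it was well above background on 0 of 2 untreated arrays at 6 h and on 1 of 2 in each of the other 3 conditions. By arrays, the 2 of the cIAP2 line lay above the 2 of the control line in all 4 conditions for HSP90B1, SDF2L1, PDIA3, ERO1A and SERP1, and below them in all 4 for PDIA6, ERO1B, EIF2AK3, WFS1 and SEC61B.

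Further differences were HSP90B1 0.40, SSR1 0.41, PDIA3 0.40, PDIA4 0.31, DERL2 0.30, MANF 0.29, CALR 0.27, SERP1 0.26 and SDF2L1 0.23 higher on the log2 scale. On the lower side EIF2AK3 was at -0.59, SEL1L at -0.43, PDIA6 at -0.42, HERPUD1 at -0.30 and SEC61B at -0.23. The HERPUD1 value is a mean of 2 untreated conditions in which the cIAP2 line was lower, with a mean log2 difference of -0.81 (adjusted p = 0.00198), and 2 bortezomib conditions in which it was higher. Untreated SEL1L differed by -0.85 (adjusted p = 0.0163). With bortezomib at 24 h its mean was 12.06 in the cIAP2 line and 11.79 in the control line. The dim array read SEL1L at 12.51 and its replicate at 11.62. Second probes gave smaller line differences for PDIA3, with -0.000335, for HSP90B1, with 0.13, and for SSR1, with 0.07, none of which passed. A further SSR1 probe gave 0.27 and did not pass. The other SEL1L probes gave larger differences, -0.76 (adjusted p = 0.0169) and -0.82 (adjusted p = 0.25). Across the members the median difference was 0.02.

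Line and slide were largely but not fully confounded. With the slide as a block 7 of the 18 members kept their call, HSP90B1, PDIA3, ERO1A and EDEM1 as higher and PDIA6, EIF2AK3 and WFS1 as lower, and DERL1 passed besides as lower. The other 11, CALR, SDF2L1, MANF, PDIA4, DERL2, SSR1, SERP1, ERO1B, HERPUD1, SEL1L and SEC61B, kept their direction but did not pass. The count was thus 4 higher and 4 lower. With the dim array left out as well, 17 members passed under the block and 15 of the 18 kept their call. In the fit with all arrays, scaling to the 75th percentile also gave 4 and 4. Untreated cells at 6 h were on both slides, and there WFS1 differed by -0.73 on slide 1 and -0.78 on slide 2. EIF2AK3 differed by -0.58 and -0.60, HERPUD1 by -0.65 and -0.69, and SEL1L by -0.82 and -0.81. HSP90B1 was higher by 0.32 and 0.53, and ERO1A by 0.35 and 0.55. Under the methods' own thresholds for the lines, which ask for more than 2-fold, no member passed in either analysis.

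**Figure D4:**
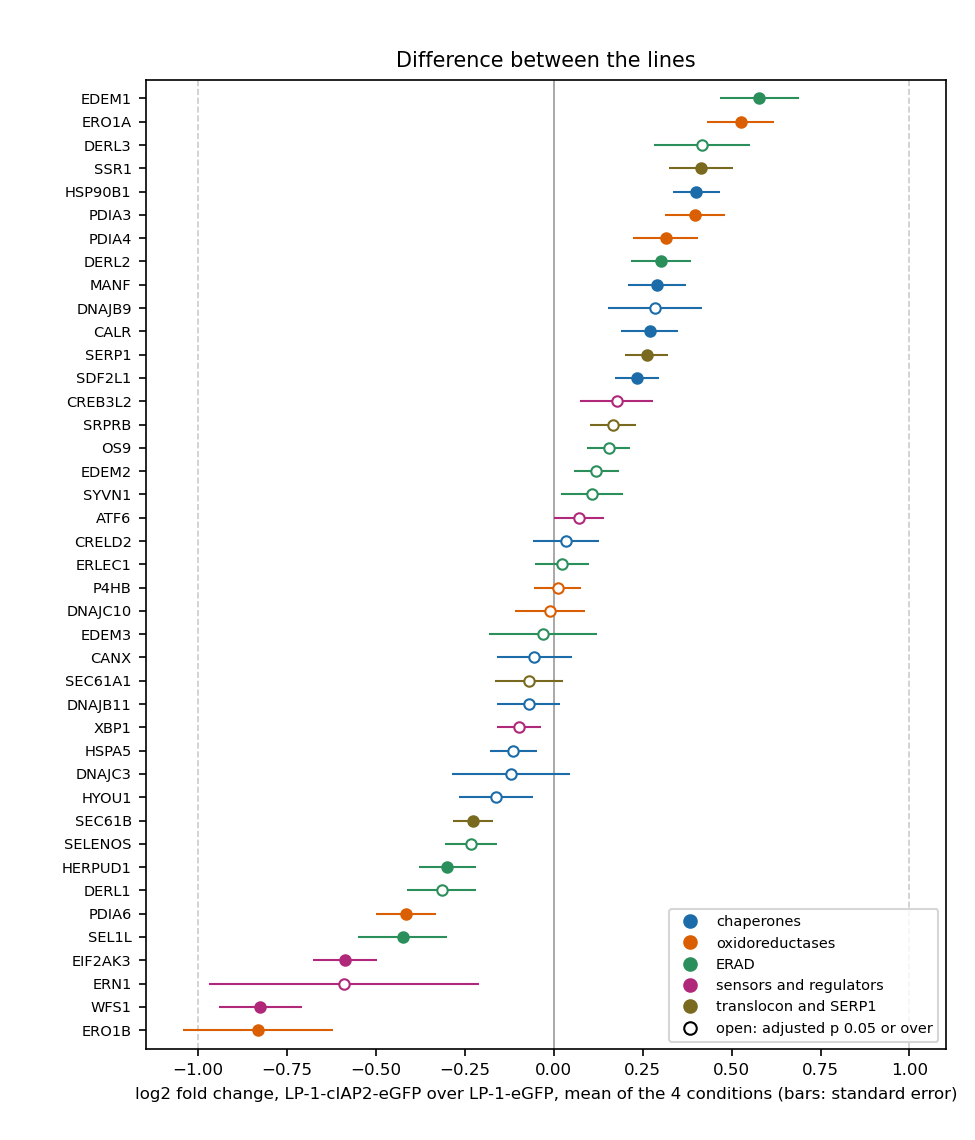
Points give the log2 fold change of the cIAP2 line over the control line, mean of the 4 conditions, for each of the 41 members, with bars for the standard error, filled where the adjusted p was under 0.05, and dashed lines at 2-fold. EDEM1 is at the top, WFS1 is near the bottom beside ERO1B, which was above background on only 3 of the 8 arrays of the cIAP2 line, and no filled point reaches 2-fold.

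Whether the response to bortezomib differed between the lines was tested directly. No member passed at 6 h or at 24 h by limma after correction, where 0% and 0.104% of all genes passed. At an unadjusted p under 0.05 there were 1 and 6 members, beside 1.54% and 8.71% of all genes. HERPUD1 came closest. Its 24 h response was larger by 1.26 ± 0.23 log2 units in the cIAP2 line (adjusted p = 0.135, unadjusted p = 0.00028), and its 6 h response by 0.78 ± 0.23. Across the alternative settings the 24 h value ran from 1.05 to 1.56 and the adjusted p from 0.00588 to 1.00, and it passed in 5 of them. Within a slide the 24 h response was 0.38 in the control line on slide 2 and 1.54 in the cIAP2 line on slide 1. With the slide as a block the difference was again 1.26 (adjusted p = 0.259), since the placing of the arrays at 24 h cancels a constant slide offset. It was 1.05 without replicate 1 of the untreated control line at 24 h. The line and response comparisons share the untreated arrays, on which HERPUD1 was lower in the cIAP2 line. For SEL1L the difference was 1.16 (adjusted p = 0.463), but it was 0.72 without the dim array and -0.51 with the probes of a gene averaged, so its direction is not settled. DNAJB9 had 1.12, or 0.69 without replicate 1 of the untreated control line at 24 h, and XBP1 had 0.52 (adjusted p = 0.516).

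Other genes of the same pathways were listed by function. Of 30 other folding genes, 1 passed at 6 h in the control line and 0 in the cIAP2 line, while at 24 h 3 were higher and 9 lower in the control line and 4 higher and 11 lower in the cIAP2 line, beside 13.3% of all genes higher and 15.1% lower, and 14.4% higher and 22% lower. TXNDC5, a protein disulfide isomerase, fell, with -2.58 ± 0.16 (SE, adjusted p = 1.49e-05) and -2.65 ± 0.16 (SE, adjusted p = 7.02e-06). MZB1, an ER cofactor of antibody secretion and a plasma cell marker, was at -1.92 and -2.09, and PRDX4, an ER peroxiredoxin, at -1.78 and -1.92. FKBP7, a peptidyl-prolyl isomerase, was at -1.24 in the control line. With bortezomib at 24 h in the cIAP2 line its spot was kept only on the dim array, where it was not well above background, so no value is given and its count as lower there rests on that array.

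Among 30 other ERAD genes none passed at 6 h by limma, and at 24 h 8 were higher and 5 lower in the control line and 8 higher and 3 lower in the cIAP2 line, where 28.4% and 36.4% of all genes passed, so the cIAP2 share was near that of all genes. UFD1 and NPLOC4, the cofactors with which p97 extracts ubiquitinated proteins, rose together, UFD1 by 1.25 and 1.16 and NPLOC4 by 1.22 and 1.09. CCDC47, an ER membrane protein, rose by 1.24 and 1.00, in a fit that lacked its spot on 1 untreated control array at 6 h. UBE2J1, the ER-bound ubiquitin-conjugating enzyme that serves HRD1, fell, with -1.71 ± 0.17 (SE, adjusted p = 0.000145) and -2.10 ± 0.17 (SE, adjusted p = 3.58e-05), and UBE2J1 was higher in the cIAP2 line by 0.92 over all conditions. Of 31 tested translocon and glycosylation genes none passed at 6 h, and 1 was higher and 6 lower at 24 h in the control line and 2 higher and 6 lower in the cIAP2 line, beside 28.4% and 36.4% of all genes in either direction. TRAM1 and TRAM2, translocating chain-associated proteins, fell, TRAM1 with -1.91 and -0.95 and TRAM2 with -1.94 and -1.51. SSR3, a partner of SSR1, was at -1.09 and -1.01, and SPCS1, a signal peptidase subunit, at -1.08 and -0.91.

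Transport out of the ER is carried by COPII coats. Of 19 COPII and retrieval genes, 5 were higher and 1 lower at 24 h in the control line and 9 higher and 2 lower in the cIAP2 line, where the shares of all genes were 28.4% and 36.4%. SEC24D, a cargo-binding coat subunit, rose at both times, by 1.39 and 1.58 at 6 h and 1.59 and 1.68 at 24 h. SAR1A, the GTPase that starts the coat, rose at 24 h by 0.79 and 1.07, SEC24B by 0.97 and 0.61 and SEC13 by 0.61 and 0.50. Among 27 tested UPR regulators, 3 passed at 6 h in the control line and 2 in the cIAP2 line, all higher, and at 24 h 7 were higher and 3 lower in the control line and 7 higher and 5 lower in the cIAP2 line. Of all genes, 2.87% and 1.48% passed at 6 h and 28.4% and 36.4% at 24 h.

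DDIT3, PPP1R15A and TRIB3 are genes downstream of PERK and ATF4, and all 3 rose in both lines at 24 h. DDIT3 (CHOP) is a transcription factor of the late, pro-apoptotic UPR. DDIT3 in the control line had log2 signals of 10.32 and 10.15 untreated and 12.996 and 13.10 with bortezomib at 6 h, and 11.91 and 9.94 untreated and 14.40 and 14.39 with bortezomib at 24 h. DDIT3 in the cIAP2 line had log2 signals of 9.83 and 9.67 untreated and 12.29 and 12.53 with bortezomib at 6 h, and 9.41 and 9.43 untreated and 13.77 and 14.46 with bortezomib at 24 h. It rose by 3.47 ± 0.49 (SE, adjusted p = 0.000894) and 4.70 ± 0.49 (SE, adjusted p = 0.000127) at 24 h. PPP1R15A (GADD34), which directs the dephosphorylation of eIF2, rose by 3.52 and 4.07, and TRIB3, a pseudokinase induced by DDIT3, by 2.13 and 2.18. CREB3, a membrane-bound transcription factor, rose by 1.49 and 1.51 at 24 h.

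The cytosolic heat shock genes, the folding machinery of the other compartment, served as a comparison. Of 18, 13 and 11 were higher at 6 h and 15 and 14 at 24 h in the control line and the cIAP2 line, none was lower, and the medians were 1.18, 1.04, 1.16 and 0.97 in that order. The shares of all genes that were higher were 1.91%, 1.11%, 13.3% and 14.4%. BAG3, a cochaperone of Hsp70, rose by 5.48 and 4.46 at 6 h, and DNAJB1 by 3.98 and 3.18. HSPA1B rose by 5.61 and 4.87 at 24 h, and since HSPA1A and HSPA1B are nearly identical in sequence, their probes may share signal. The HSPA1A probe was not well above background in untreated cells, so its rise at 6 h was at least 3.93-fold in the control line (adjusted p = 0.018) and 3.19-fold in the cIAP2 line (adjusted p = 0.0131). At 24 h it was at least 1.28-fold and 4.32-fold, with 1 of 2 treated arrays above background in each line.

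**Figure D5:**
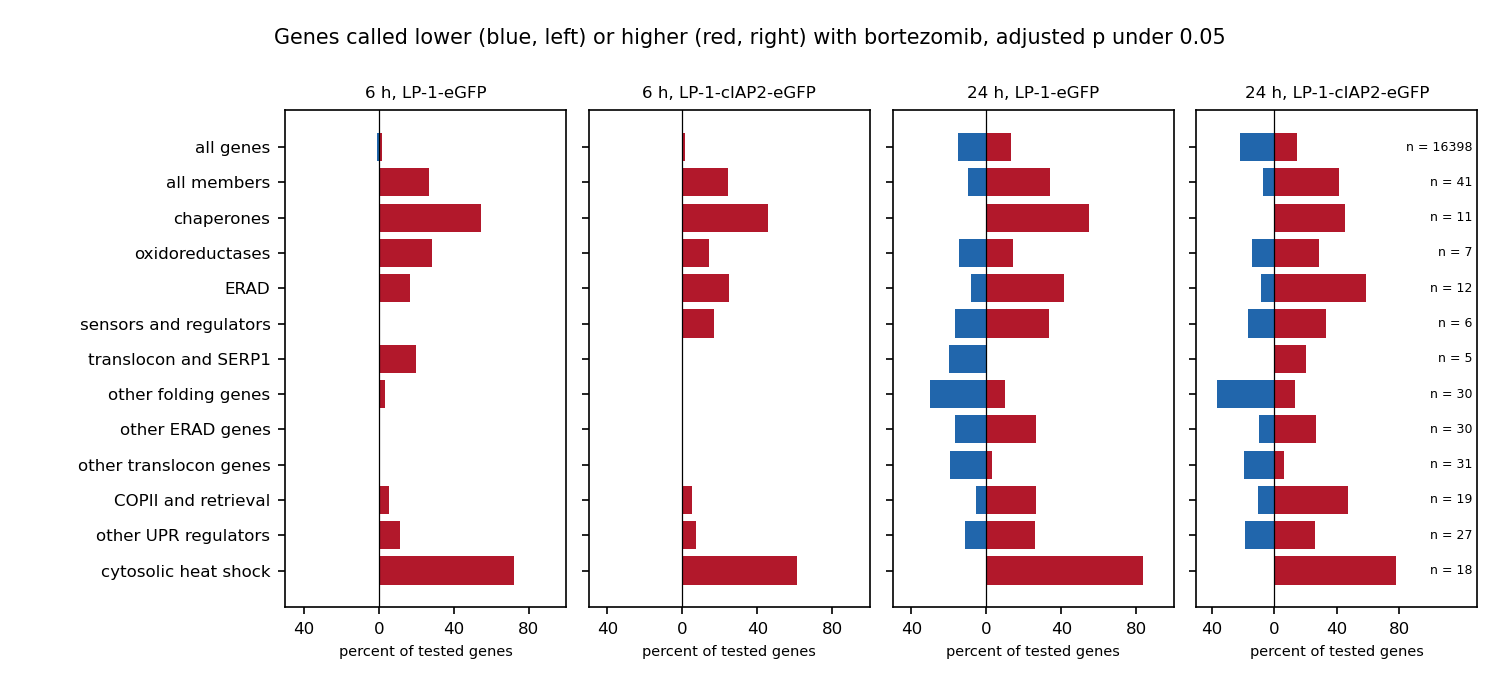
Bars give the percent of tested genes of each list that were called higher (red, to the right) or lower (blue, to the left) with bortezomib at an adjusted p under 0.05, in 4 panels by time and line, with the number tested at the right. At 6 h the called members are all higher and most of them are chaperones, oxidoreductases or ERAD factors. These classes hold 11, 7 and 12 of the 41 members. At 24 h the other folding and translocon genes are more often lower than higher.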

How the data were processed

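RNA of 16 samples was hybridised to Agilent SurePrint G3 Human 8×60K v2 arrays, and per the file headers the authors made the deposited intensity values with Agilent Feature Extraction 10.7.3.1, which subtracts background and leaves arrays unnormalized. The deposited flags of spots that are well above background, saturated or outlying have no unit. The authors also deposited log2 values, quantile normalized in GeneSpring and centred on each probe's median, which served as an alternative. No sample column was left unused.

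Processed intensities of 58717 gene spots were put on the log2 scale, outlier spots were left out, spots of each of 50599 probes were averaged, and arrays were quantile normalized as in the methods. The 33731 probes whose spots cleared background on both replicates of some condition were fitted with limma 3.58.1 in R 4.3.3, with 1 mean per condition, moderated variances (prior degrees of freedom 1.61) and Benjamini-Hochberg adjustment over these probes. Of all probes 28174 (55.7%) had a symbol through their RefSeq accession (GRCh38.p14 annotation, names only). A gene was its brightest tested probe, and 11 members had several probes. No member spot was saturated. One further B cell marker is not reported here. Precision is limited by 2 arrays a condition, among other things, and replicates are separate biological samples per the labels.

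The members and the gene lists were chosen with earlier results of these data known. Values on every array are given for the 2 members of each class with the greatest mean change at 24 h, for members called between lines, and for XBP1, ATF6, ERN1 and EIF2AK3. From each other list the up to 4 genes with the greatest 24 h change called in both lines are named, and DDIT3's array values were added after its values were seen. Lower bounds ("at least") set the brighter mean against, per array, the lowest signal above background or the dim probe's own. The fit was tested on simulated data. The labels do not say whether replicate numbers pair the samples. Deviations of same-numbered arrays correlated above 0.1 in 7 of 28 pairs of conditions (range -0.11 to 0.24), which cannot show that they were unpaired. No block was used in the main fit. Alternatives covered scaling, background correction, signal filters, the authors' values, array weights, slide and replicate blocks, averaged probes and each array left out, and a slide block without the dim array was chosen after seeing the data.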

Additional observations from a re-analysis of the deposited data

Results flagged for a closer look

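SERP1 had values of opposite sign in the lines at 24 h. Both bortezomib arrays of the control line lay below both untreated arrays, with a log2 value of -0.195 (adjusted p = 0.335), and both of the cIAP2 line lay above theirs, with 0.104 (adjusted p = 0.549), a difference of 0.299. None of these passed the limma test, and the adjusted p of the difference was 0.634. No other member had treated arrays clear of the untreated ones on opposite sides in the lines.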

How the results depend on the processing

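The 89 changes of single members that passed kept their direction in each alternative that gave them a value, which the filter on all arrays did for 84, with 1 exception, EIF2AK3 at 24 h in the cIAP2 line, which was -0.0135 with the normexp correction. The counts moved more, in the order control line at 6 h, cIAP2 line at 6 h, control line at 24 h, cIAP2 line at 24 h and between lines, from 11, 10, 18, 20 and 18. Scaling to the 75th percentile gave 7, 7, 11, 16 and 8 members, normexp 8, 8, 11, 19 and 11, no signal filter 5, 5, 12, 16 and 9, the filter on all arrays 20, 20, 21, 23 and 21, the slide block 6, 4, 14, 16 and 8, the slide block without the dim array 15, 13, 20, 20 and 17, and array weights 28, 23, 17, 7 and 14. A threshold of more than 2-fold besides gave 7, 9, 8, 9 and 0, and the methods' rules for the lines 0 and 0. The difference between 24 h and 6 h went from 12 to 7 with no filter and to 4 at more than 2-fold. The response difference between lines at 24 h went from 0 to 1 (HERPUD1) with normexp or the filter on all arrays, and untreated cells over time from 0 to 1 with array weights or the filter on all arrays.

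With the replicate block the counts were 14, 14, 21, 22 and 19, and all 89 changes still passed. No response difference between the lines passed under it. The authors' log2 values gave 10, 8, 17, 19 and 17.

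Leaving out 1 array gave 1 to 19 members at 6 h in the control line, 3 to 20 at 6 h in the cIAP2 line, 10 to 22 and 12 to 21 at 24 h, 7 to 17 between the times, 8 to 25 between the lines, 0 to 7 for the response difference at 24 h and 0 to 0 for that at 6 h and for untreated cells. The 6 h count in the control line was 1 without either untreated 6 h array of that line, 3 and 2 without its 6 h bortezomib replicate 1 and 2, 7 without either untreated cIAP2 array at 6 h or 24 h or the cIAP2 6 h bortezomib replicate 1, and 19 without either cIAP2 24 h bortezomib array. The 6 h count in the cIAP2 line was 3 and 4 without its untreated 6 h replicate 1 and 2, 4 without either 6 h bortezomib array, 5 and 6 without replicate 1 of the control line at 6 h untreated and treated, and 20 without either own 24 h bortezomib array. The 24 h counts fell to 10 without the control line bortezomib replicate 1 or untreated replicate 2, and to 13 and 12 without the untreated cIAP2 line replicate 1 and 2. The count between lines was 8 without the control line 6 h untreated replicate 2 or bortezomib replicate 1, and 9 to 11 without either cIAP2 6 h array of either treatment, cIAP2 untreated 24 h replicate 2, either control bortezomib 24 h array, control untreated 6 h replicate 1 or control bortezomib 6 h replicate 2. The difference between the times was 7 without any of 5 arrays, the cIAP2 line 6 h bortezomib replicate 1 or untreated replicate 2, or the control line 6 h untreated replicate 1, 6 h bortezomib replicate 2 or 24 h bortezomib replicate 1. The response difference was 7 without the cIAP2 line bortezomib 24 h replicate 2, which leaves that condition to the dim array, and 1 without its replicate 1 or without the control line untreated 24 h replicate 2. A lone array left in a condition is assumed to vary like the others.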
